A study of Saccharomyces cerevisiae with 4 samples.

Results

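The genes described here are 10 genes of Saccharomyces cerevisiae that respond to oxygen and heme. They are part of 5329 named genes that the authors tested, with a messenger RNA level above 0 in both strains. The 10 genes were selected by systematic name, with earlier results of these data known, and no threshold on their values was used. They are DAN1 (YJR150C), TIR2 (YOR010C), TIR3 (YIL011W), TIR4 (YOR009W), AUS1 (YOR011W), PDR11 (YIL013C), ANB1 (YJR047C), HEM13 (YDR044W), ROX1 (YPR065W) and UPC2 (YDR213W). All 10 were found, each as 1 gene model, and all 10 were tested by the authors.

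Budding yeast needs molecular oxygen to make heme, sterols and unsaturated fatty acids. When oxygen is present, heme activates the transcription factor Hap1, which raises ROX1, and the Rox1 protein represses genes of hypoxic growth such as ANB1 and HEM13. When sterols run short, the transcription factor Upc2 switches on genes of sterol supply and of the anaerobic cell wall. Anaerobic cells import sterol from the medium through the ABC transporters Aus1 and Pdr11, and they cover their wall with mannoproteins of the Dan and Tir families in place of Cwp1 and Cwp2.

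RNA was sequenced from 2 libraries of the minimal glycolysis strain IMX372 and from 2 of its reference, CEN.PK113-7D, a prototrophic haploid strain of mating type a. IMX372 lacks 13 minor paralogs of glycolysis and alcoholic fermentation. In its genotype label glk1 is replaced by SpHis5, hxk1 by KlLEU2 and tdh1 by KlURA3, while the genes listed with no replacement are tdh2, gpm2 and gpm3, eno1 and pyk2, pdc5 and pdc6, and adh2, adh4 and adh5. It also carries ura3-52, his3-1 and a mutant leu2 allele, so effects of the markers and of the deletions cannot be told apart. Both strains share MATa, MAL2-8c and SUC2, and none of the 10 genes is among the deleted ones. Both grew at 30 °C and pH 5 in batch bioreactors that held 20 g/L glucose, and cells were sampled in mid-exponential phase. Air was sparged at 500 mL/min into 1 L of culture stirred at 800 rpm. Neither strain was deprived of oxygen by design, and the labels give no dissolved oxygen value.

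Levels are fragments per 1000 bases of coding length and per 1000000 fragments of the library (FPKM), which the authors pooled into 1 value per strain. No value per library, SD or n can therefore be given, and the depth behind a value is unknown. The study's records give 4 cultivations per strain, but the labels do not say that the libraries of a strain are separate cultivations. The authors' p-values may therefore measure technical spread only. The minor phosphoglycerate mutase gene GPM3 checks the strain labels. It was listed at 0 FPKM in the minimal glycolysis strain, against 57.7 FPKM in the reference (q = 0.00735 in the authors' deposited table). Of the 13 deleted genes, 10 were listed at 0 in both strains and not tested, so they check nothing.

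None of the 10 oxygen and heme responsive genes differed between the strains in the authors' test. In the authors' deposited table, made with Cuffdiff, 0 of the 10 had a q of at most 0.05, against 0.751% of all genes (0.525% called higher in the minimal glycolysis strain and 0.225% lower), and 0 of the 10 had an unadjusted p under 0.05, against 3.13% of all genes. At a q of at most 0.01, or by a change of at least 2-fold, 0 of the 10 passed as well, against 0.638% and 0.488% of all genes. At these shares, 0 of 10 is near the background. Log2 ratios are given with the minimal glycolysis strain over its reference. Of the 10 ratios, 5 were above 0 and 5 below. Their median was -0.02, beside 0.01 over all genes, and they ran from -0.64 for DAN1 to 0.17 for TIR3. All 10 genes had a q of 0.998 in the authors' deposited table, and the smallest unadjusted p was that of DAN1, at 0.114. These p-values do not show that the strains were alike in these genes, since the smallest fold called for any gene was 1.57.

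**Figure D1:**
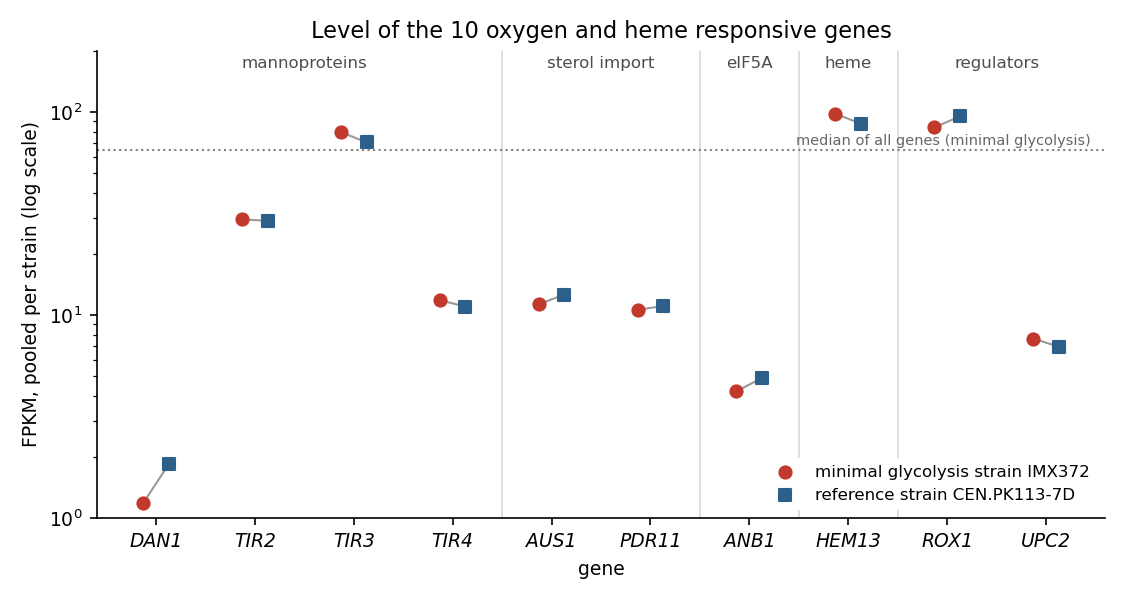
FPKM of each of the 10 genes on a log axis, pooled by the authors over 2 libraries per strain, with the minimal glycolysis strain as red circles and the reference as blue squares. No error bars can be drawn from pooled values. Levels run from 1.18 FPKM for DAN1 to 97.8 FPKM for HEM13 in the minimal glycolysis strain, and the dotted line is the median of all genes in that strain, 65.1 FPKM.

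The levels of the 10 genes spread far more among themselves than between strains. The highest and lowest differed 83.1-fold in the minimal glycolysis strain and 51.7-fold in the reference. HEM13, ROX1 and TIR3 were the 3 genes above 70 FPKM in each strain, and 6 of the 10 lay under 20 FPKM in each. The median level of the 10 was 11.5 FPKM in the minimal glycolysis strain and 11.8 FPKM in the reference, against medians over all genes of 65.1 FPKM and 63.1 FPKM in the same strains. From high to low, the order in the minimal glycolysis strain was HEM13, ROX1, TIR3, TIR2, TIR4, AUS1, PDR11, UPC2, ANB1 and DAN1. In the reference ROX1 stood above HEM13, and AUS1 and PDR11 stood above TIR4, while the other 5 genes kept their ranks. With no spread between libraries, it cannot be said which neighbours in this order differ.

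Neither of the regulators among the 10 genes was called. ROX1, the heme-dependent repressor of hypoxic genes (chromosome 16, 679611 to 680717, coordinates of the CEN.PK113-7D assembly), had 83.9 FPKM in the minimal glycolysis strain, against 95.0 FPKM in the reference. Its log2 ratio was -0.18, a ratio of 0.883, with an unadjusted p of 0.278 in the authors' deposited table. ROX1 was expressed near the median gene in both strains, at the 57.5 percentile of all genes in the minimal glycolysis strain and the 61.9 percentile in the reference. UPC2, the sterol-sensing activator (chromosome 4, 888778 to 891519), had 7.64 FPKM in the minimal glycolysis strain, against 6.96 FPKM in the reference. Its log2 ratio of 0.14 was not called (p = 0.475 in the authors' deposited table). UPC2 thus ranked low, at the 4.96 percentile of genes in the minimal glycolysis strain and the 3.91 percentile in the reference. ECM22, its paralog, which also activates sterol genes, had 20.6 FPKM in the minimal glycolysis strain and 20.7 FPKM in the reference.

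Among 14 other regulators of the oxygen, heme and sterol response, 0 were called by the authors' Cuffdiff test and 0 had an unadjusted p under 0.05. Over all genes these shares were 0.751% and 3.13%, so 0 of 14 is near the background. The median log2 ratio of the 14 was 0.01, with 8 above 0 and 6 below. HAP1, the heme-activated factor above ROX1, had 16.2 FPKM in the minimal glycolysis strain and 15.9 FPKM in the reference in the model that holds most of the gene. A short second model of HAP1 had 283 FPKM in the minimal glycolysis strain and 374 FPKM in the reference, a log2 ratio of -0.40 that was not called (p = 0.0692 in the authors' deposited table). The 2 models of this gene therefore do not give the same ratio. By the longest model of each, HAP3, HAP4 and SUT1 had the most distant ratios among regulators of at least 10 FPKM. Their log2 ratios were 0.22, -0.21 and 0.16. MGA2, another of the 14, had a log2 ratio of -0.09 in its longer model and 0.21 in its shorter one, with neither called. HAP3 and HAP4 are subunits of the heme-dependent activator of respiratory genes, and SUT1 is a regulator of sterol uptake.

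HEM13 encodes coproporphyrinogen III oxidase, a step of heme synthesis that consumes oxygen. It is known to rise when oxygen or heme is short. HEM13 (chromosome 4, 545678 to 546664) had 97.8 FPKM in the minimal glycolysis strain, against 87.3 FPKM in the reference. Its log2 ratio was 0.16, a ratio of 1.12, and was not called (p = 0.323 in the authors' deposited table). HEM13 stood near the median gene, at the 61.9 percentile in the minimal glycolysis strain and the 59.5 percentile in the reference.

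The 7 other genes of heme synthesis held 0 calls, and 0 had an unadjusted p under 0.05 in the Cuffdiff test. Both counts are near the background of 0.751% and 3.13% of all genes. The median log2 ratio of the 7 was 0.02, with 4 above 0 and 3 below. HEM1, the first enzyme of the pathway, had 110 FPKM in the minimal glycolysis strain and 93.0 FPKM in the reference in its longer model. The shorter model of HEM1 had 52.3 FPKM in the minimal glycolysis strain and 58.9 FPKM in the reference, so the 2 models stand on opposite sides of 0, at log2 ratios of 0.24 and -0.17. HEM3 and HEM4, which act in the middle of the pathway, had log2 ratios of -0.16 and 0.13. HEM12, the enzyme just before HEM13, had 197 FPKM in the minimal glycolysis strain and 194 FPKM in the reference.

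ANB1 encodes the hypoxic form of the translation factor eIF5A, and HYP2 the form used in air. ANB1 (chromosome 10, 507450 to 507923) had 4.20 FPKM in the minimal glycolysis strain, against 4.90 FPKM in the reference (log2 ratio -0.22, p = 0.543 in the authors' deposited table). HYP2 had 12909 FPKM in the minimal glycolysis strain, against 12410 FPKM in the reference. ANB1 thus made up 0.0325% of the summed FPKM of the pair in the minimal glycolysis strain and 0.0394% in the reference. The coding sequences of these 2 genes are similar, though they were not compared here. Some reads of 51 bases can be placed on the wrong copy, so the small value of ANB1 is uncertain. How many of its reads came from HYP2 was not tested.

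**Figure D2:**
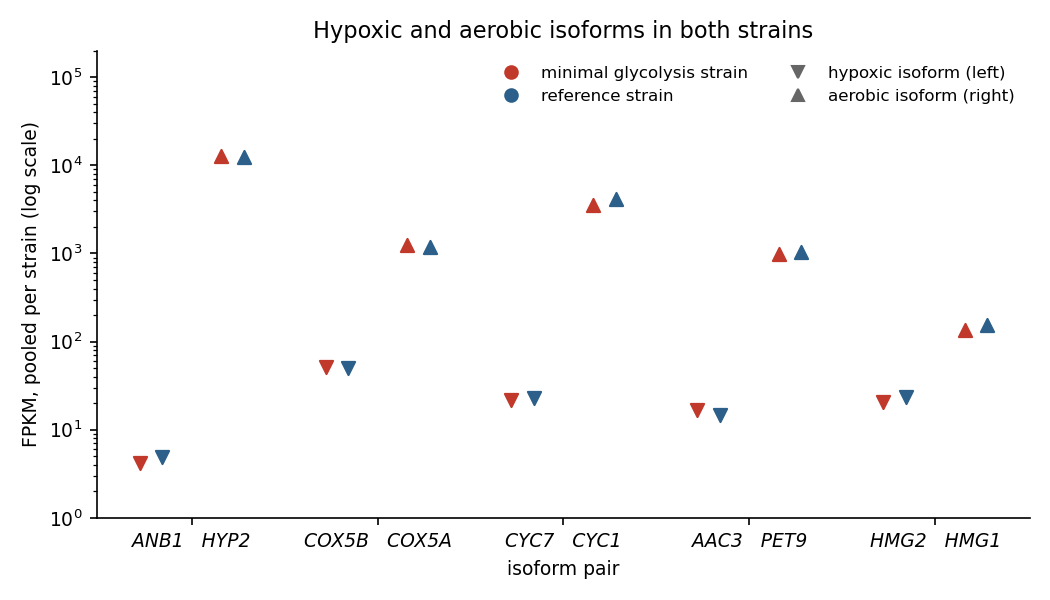
FPKM on a log axis of 5 pairs of genes for a hypoxic isoform (triangles pointing down, left) and an aerobic isoform (triangles pointing up, right), with the minimal glycolysis strain in red and the reference in blue. In all 5 pairs the aerobic isoform is higher in both strains, from 6.57-fold for HMG1 over HMG2 to 3071-fold for HYP2 over ANB1 in the minimal glycolysis strain.

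In all 5 pairs of hypoxic and aerobic isoforms, the aerobic gene was the higher one in both strains. COX5B, the hypoxic subunit Vb of cytochrome c oxidase, made up 3.94% of the summed FPKM with COX5A in the minimal glycolysis strain and 3.97% in the reference. The model of COX5B covers 63.4% of the length of that gene in the R64 reference genome, while the model of COX5A has the full length. CYC7, the minor cytochrome c gene, made up 0.612% of its pair with CYC1 in the minimal glycolysis strain and 0.541% in the reference. AAC3, a mitochondrial ADP/ATP carrier gene induced by hypoxia, made up 1.68% of its pair with PET9 in the minimal glycolysis strain and 1.39% in the reference. HMG2, the HMG-CoA reductase gene favoured at low oxygen, made up 13.2% of its pair with HMG1 in both strains. The log2 change in hypoxic over aerobic FPKM, minimal glycolysis over reference, was -0.28 for ANB1, 0.28 for AAC3 and 0.18 for CYC7. It was -0.01 for COX5B and 0.004 for HMG2. Of the 10 genes in these pairs, 0 was called or had an unadjusted p under 0.05 in the Cuffdiff test. Both counts are near the background of 0.751% and 3.13% of all genes. The difference of a pair's share between strains has no test of its own on pooled values.

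The anaerobic cell wall genes had low to middling levels. TIR3 (chromosome 9, 334028 to 334837) had 79.5 FPKM in the minimal glycolysis strain, against 70.8 FPKM in the reference (log2 ratio 0.17, p = 0.336 in the authors' deposited table). TIR2 (chromosome 15, 346097 to 346852) had 29.6 FPKM in the minimal glycolysis strain, against 29.0 FPKM in the reference (log2 ratio 0.03). TIR4 (chromosome 15, 344420 to 345700) had 11.8 FPKM in the minimal glycolysis strain, against 11.0 FPKM in the reference (log2 ratio 0.10). All 3 encode serine-rich and alanine-rich wall mannoproteins, and all 3 ratios were above 0 with none called. The model of TIR4 covers 87.5% of the coding length of that gene in the R64 reference genome, while the models of the other 9 genes have the full length.

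DAN1, a wall mannoprotein made in the absence of oxygen, was the least expressed of the 10 genes and had the most distant ratio. DAN1 (chromosome 10, 691362 to 692258) had 1.18 FPKM in the minimal glycolysis strain, against 1.84 FPKM in the reference. The log2 ratio was -0.64, a ratio of 0.641, and was not called (p = 0.114 in the authors' deposited table). On its coding length, this is 1.06 of every 1000000 fragments in the minimal glycolysis strain and 1.65 in the reference. Fewer than 1% of the tested genes had a lower level than DAN1 in either strain. It stood at the 0.478 percentile of these in the minimal glycolysis strain and the 0.722 percentile in the reference. With 1 FPKM added to each value, the log2 ratio of DAN1 was -0.38, and with 5 FPKM added it was -0.15.

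DAN1, TIR2, TIR3 and TIR4 summed to 122 FPKM in the minimal glycolysis strain and 113 FPKM in the reference. TIR3 alone made up 65.1% of this sum in the minimal glycolysis strain and 62.8% in the reference. CWP1 and CWP2, the mannoproteins of aerobic cells, summed to 6541 FPKM in the minimal glycolysis strain and 6446 FPKM in the reference, which is 53.6 times and 57.2 times the sum of the 4 anaerobic genes in the same strains. CWP2 accounted for nearly all of it, at 6356 FPKM in the minimal glycolysis strain and 6353 FPKM in the reference. CWP1 was the 1 wall gene here that the authors' test called higher, beside 0.525% called higher among all genes. It had 185 FPKM in the minimal glycolysis strain and 93.0 FPKM in the reference (q = 0.00735 in the authors' deposited table). The model that the table names DAN2, which R64 counts among the seripauperins as PAU23, had 12.3 FPKM in the minimal glycolysis strain and 13.5 FPKM in the reference. TIR1, DAN3 and DAN4 were looked up and had no tested value under their systematic names in R64.

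AUS1 and PDR11, the paralogous ABC transporters of sterol import, had nearly equal levels. AUS1 (chromosome 15, 349582 to 353766) had 11.3 FPKM in the minimal glycolysis strain, against 12.6 FPKM in the reference (log2 ratio -0.16, p = 0.359 in the authors' deposited table). PDR11 (chromosome 9, 328508 to 332743) had 10.6 FPKM in the minimal glycolysis strain, against 11.1 FPKM in the reference (log2 ratio -0.06, p = 0.712 in the authors' deposited table). Both lay in the lowest 10% of genes by level in both strains, between the 7.38 and the 8.45 percentile. Among 7 other ABC transporter genes of the PDR group, 6 stood below 0 and 1 was called, beside 47.0% below 0 and 0.751% called among all genes, and the median log2 ratio was -0.18, beside 0.01 over all genes. PDR12, a weak acid efflux pump, was the 1 called, at 12.2 FPKM in the minimal glycolysis strain and 22.7 FPKM in the reference (q = 0.00735 in the authors' deposited table). ADP1 and PDR15, of the same group, had log2 ratios of -0.24 and -0.18 and were not called.

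Upc2 also controls genes of sterol synthesis. The 6 tested, ERG1, ERG2, ERG3, ERG8, ERG11 and ERG25, had log2 ratios between -0.07 and 0.003. In the Cuffdiff test 0 were called and 0 had an unadjusted p under 0.05, against 0.751% and 3.13% of all genes. Both counts are near the background. ERG25, a sterol methyl oxidase gene, was the most distant, at 1793 FPKM in the minimal glycolysis strain and 1884 FPKM in the reference. ERG11 had a log2 ratio of -0.06 and ERG3 one of -0.05. The 5 genes of sterol esterification and release had a median log2 ratio of -0.09. They too held 0 calls and 0 at an unadjusted p under 0.05, near the same background. ARE2, the main sterol acyltransferase gene, led them at -0.20, followed by YEH1 at -0.13 and TGL1 at -0.09, both encoding steryl ester hydrolases.

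**Figure D3:**
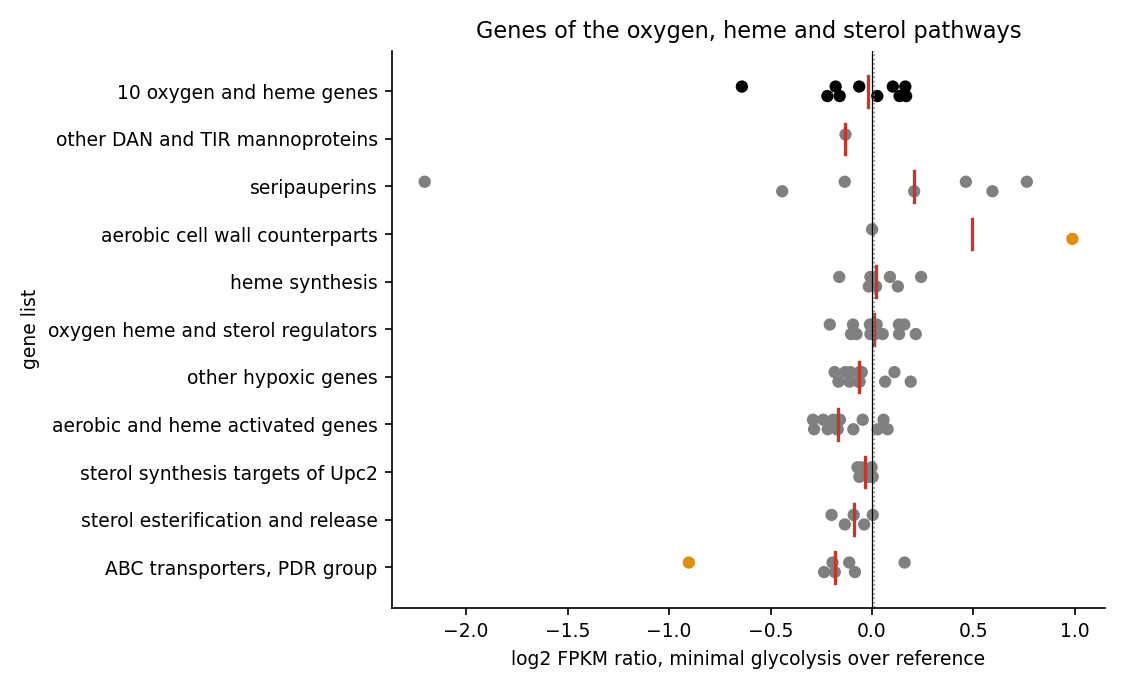
Log2 FPKM ratio, IMX372 over CEN.PK113-7D, for the 10 genes (black) and for 10 related gene lists (grey), 1 point per gene, with orange for genes at a q of at most 0.05, red bars for the median of each list and a dotted line for the median of all genes, 0.01. The 2 orange points are CWP1 at 0.99 and PDR12 at -0.90, and the seripauperin gene farthest to the left, at -2.20, has a level under 2 FPKM in both strains.

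The lists of other hypoxic genes and of genes that are high in air or activated by heme held 0 calls, against 0.751% of all genes. Among 12 other hypoxic genes, 9 stood below 0 and 3 above, and the median log2 ratio was -0.06. AAC3, OLE1 and HMG2 were the most distant at 0.19, -0.18 and -0.17. OLE1, the oxygen-requiring fatty acid desaturase gene, had 498 FPKM in the minimal glycolysis strain and 565 FPKM in the reference. Among 14 genes that are high in air or that heme activates, 11 stood below 0 and 3 above. Their median log2 ratio was -0.17, beside 0.01 over all genes, of which 47.0% were below 0. CYB2, SOD2 and CYC1 were the most distant, at -0.29, -0.29 and -0.24. CYC1, the major cytochrome c gene, had 3553 FPKM in the minimal glycolysis strain and 4197 FPKM in the reference. In both lists the authors' Cuffdiff test called 0 genes, and 0 had an unadjusted p under 0.05, against 3.13% of all genes. The smallest of these p-values was 0.0822, for SOD2, the mitochondrial superoxide dismutase gene.

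**Figure D4:**
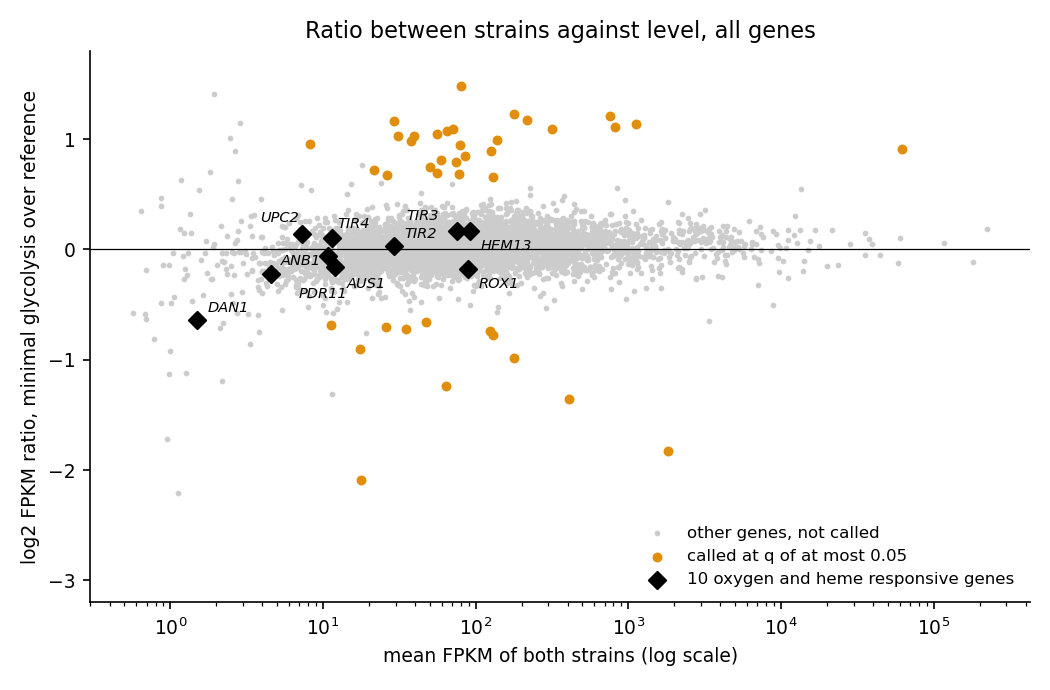
Log2 FPKM ratio, IMX372 over CEN.PK113-7D, against the mean FPKM of both strains on a log axis, 1 point per gene for 5329 genes, with genes at a q of at most 0.05 in orange and the 10 oxygen and heme responsive genes as black diamonds. The diamonds lie inside the cloud of genes that were not called, and DAN1, at -0.64, sits at the low end where ratios scatter most.

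How much a ratio scatters depends on the level, so each of the 10 genes was set beside all genes of like FPKM. Among the 2495 genes between 20 and 100 FPKM, the central 95% of log2 ratios ran from -0.25 to 0.31, and TIR2, TIR3, HEM13 and ROX1 lay inside it. Among the 731 genes between 5 and 20 FPKM it ran from -0.38 to 0.28, and TIR4, AUS1, PDR11 and UPC2 lay inside it. The smallest fold called was 1.57 in the first of these ranges and 1.61 in the second. Under 5 FPKM, where DAN1 and ANB1 stood, the central 95% of 124 genes ran from -1.13 to 0.88. In that range the Cuffdiff test called 0 genes, while 7 had an unadjusted p under 0.05, so even the largest ratios at the level of DAN1 and ANB1 went without a call.

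Of the 10 genes, 5 lie next to another of them on the authors' assembly. TIR4, TIR2 and AUS1 are consecutive models within 9347 bases of chromosome 15 (344420 to 353766), with gaps of 396 and 2729 bases. PDR11 and TIR3 are consecutive within 6330 bases of chromosome 9 (328508 to 334837), 1284 bases apart. Each stretch thus holds a sterol transporter gene and at least 1 mannoprotein gene, and in both the mannoprotein ratios were above 0 and the transporter ratio below 0, with none called. ANB1 and CYC1, a hypoxic gene and an aerobic one, are also neighbours, 968 bases apart on chromosome 10 and on opposite strands by their systematic names. Both had ratios below 0, at -0.22 and -0.24 on the log2 scale. The 14 flanking models outside the 10 genes held 0 calls and 0 at an unadjusted p under 0.05 in the Cuffdiff test. Both counts are near the background of 0.751% and 3.13% of all genes. The log2 ratios of these models ran from -0.24 for CYC1 to 0.25 for RPC11, a subunit gene of RNA polymerase III beside HEM13. None of the 10 genes overlaps an annotated gene in R64. Whether the unstranded library mixes their reads with those of transcripts that run past the annotated end of a neighbour was not tested.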

How the data were processed

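RNA-seq libraries, 2 per strain, were grouped by the strain label, and replicate numbers follow the order of samples and pair nothing. The submitters' processing notes name BWA (0.5.9-r16), Cufflinks, Cuffdiff, CASAVA (1.8.2) and SAMtools (0.1.7-r510) without saying what each did. The genome of CEN.PK113-7D was used, per the labels. The authors deposited 1 FPKM per gene model and strain, pooled over libraries, with a log2 ratio, a p-value and a q-value from their own test. What "masked" in the table's sample names means is not stated. Low FPKM multiplied by length showed no common step, so reads could not be recovered. The number of unused columns with values per sample is 0.

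The longest tested model per systematic name was kept. Log2 ratios were recomputed without a pseudocount with pandas 2.3.3 and differ from the authors' by at most 1.31e-05. A gene was called at a q of at most 0.05. Pooled values allow no test between libraries. Functions were tested on simulated data. Symbols come from R64. Promoter motifs and sequences were not used here, since no sequence of the authors' assembly was at hand.

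The 10 genes and the lists were chosen with earlier results of these data known. Named are the 10 genes, their partners and neighbours. Also named are, per list, called genes and up to 3 genes by absolute log2 ratio at an FPKM of at least 10. To these HEM12, HAP1, MGA2 and RPC11 were added after their values were seen. Alternatives were a q of 0.01, q-values recomputed from the authors' p, a 2-fold change and an FPKM of at least 10. Others were 1 or 5 FPKM added, centring on the median of all genes, and any model of a name. For the 10 genes alone, the mean instead of the median was also used. Leaving out DAN1 and using the shorter model of HEM1 were chosen after seeing the data.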

Additional observations from a re-analysis of the deposited data

How the results depend on the processing

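The count of called genes among the 10 was 0 under each alternative run, in either direction: a q of 0.01, recomputed q-values, any model of a name, only genes of at least 10 FPKM, and a 2-fold change whatever the q. With no spread between libraries, a median was taken as moved where it shifted by at least 0.1 on the log2 scale. No median moved under the alternatives run for it. The mean in place of the median was run for the 10 genes only. For the seripauperins, the median of 0.21 and the mean of -0.11 differed by more than this limit. The sign of a median near 0 is less firm. The median of the 10 genes was -0.02, but 0.03 without DAN1 or with an FPKM of at least 10, and their mean was -0.07. The heme synthesis median was 0.02, but -0.008 with the shorter model of HEM1, and the regulator median was 0.01, but -0.001 after centring. No paired analysis was possible because the table gives 1 pooled value per strain, and for the same reason no library could be left out. The depth per gene is unknown.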

Other observations

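The seripauperins are a large family of small, nearly identical genes, mostly near chromosome ends, that are related to the TIR genes and are known to respond to low oxygen. Of 24 seripauperin genes in R64, 7 had a value under their systematic name (PAU23 among them, which the table names DAN2), 4 with a log2 ratio above 0 (minimal glycolysis over reference) and 3 below. The median was 0.21 and the mean -0.11, which differ in sign. The model named PAU8 lies on chromosome 7 of the authors' assembly, while its systematic name, YAL068C, is that of a gene on another chromosome. This model had 22.7 FPKM in the minimal glycolysis strain, against 13.4 FPKM in the reference. Its unadjusted p was 0.00535 and its q 0.469 in the authors' deposited table, so it was not called. PAU20 (YOL161C) had 2 models on different chromosomes. The longer, on chromosome 8, had 18.4 FPKM in the minimal glycolysis strain, against 12.2 FPKM in the reference. Its unadjusted p was 0.0379 and its q 0.998 in the authors' deposited table. The shorter model lies on chromosome 15, the chromosome of the systematic name. It had 16.1 FPKM in the minimal glycolysis strain, against 12.5 FPKM in the reference. Its unadjusted p was 0.206 in the authors' deposited table, and neither model was called. PAU17 had 20.4 FPKM in the minimal glycolysis strain, against 27.7 FPKM in the reference, and was not called. Reads of near-identical copies can be split among them, so which copy a value belongs to is uncertain.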
